A study of Mus musculus with 4 samples.

Results

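The 10 genes described here encode the KMT2 histone methyltransferases and related chromatin enzymes of hematopoietic stem cells (HSCs). They are *Kmt2a*, *Kmt2b*, *Kmt2c*, *Kmt2d*, *Kmt2e*, *Setd2*, *Nsd1*, *Ash1l*, *Men1* and *Dot1l*, chosen by name, and each has a single row among the 19354 genes with RNA-Seq values. All 10 passed the filter on low values (a mean counts-per-million value, CPM, of 1 or more), which left 15895 genes to test. The libraries compared HSCs of *Mx1-Cre* *Id2+/+* mice, the controls, with HSCs of *Mx1-Cre* *Id2 fl/fl* mice in which *Id2* had been deleted (*Id2*Δ/Δ). Mice were 8 to 16 weeks old, and both genotypes carried the Cre transgene and had received polyinosinic:polycytidylic acid (pIpC) 2 weeks earlier. *Mx1-Cre* is driven by an interferon-responsive promoter, so pIpC, which induces interferon, switches it on, and it is not restricted to HSCs. LSK FLT3- CD48- CD150+ cells were sorted by flow cytometry and pooled, from 14 control and 15 *Id2 fl/fl* mice over 2 experiments, and each genotype gave 2 libraries, replicates 1 and 2.

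Histone methyltransferases place methyl groups on lysines of histone tails or cores. KMT2A and KMT2B, with the scaffold protein menin (encoded by *Men1*), methylate lysine 4 of histone H3 at promoters, and KMT2C and KMT2D do so mainly at enhancers. SETD2, NSD1 and ASH1L methylate lysine 36 of H3 (H3K36) and DOT1L makes the H3K79 mark, both found over transcribed genes, while KMT2E has a SET domain without known methyltransferase activity. In the blood system KMT2A, formerly MLL, is known for keeping *Hox* genes and *Meis1* expressed in HSCs and for its rearrangements in leukemia.

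The deposited values are log2 CPM with nearly the same distribution in each library, as quantile normalization gives. The depth estimated from them was about 14207350 and 15663326 reads in *Id2+/+* and 17761330 and 18831991 reads in *Id2*Δ/Δ libraries. *Id2* had 93 and 98 reads in the control libraries and 0 reads in both *Id2*Δ/Δ libraries, where a count of 0 allows up to 3 reads. The HSC genes *Kit*, *Ly6a*, *Slamf1*, *Procr*, *Hlf* and *Mecom* were present. *Kit* and *Hlf* were lower in *Id2*Δ/Δ libraries at an unadjusted p-value under 0.05 (limma), as were 2.95% of all tested genes. By log2 difference of means, *Procr* (-0.06) and *Mecom* (-0.22) were also lower, whereas *Ly6a* (0.14) and *Slamf1* (0.26) were higher. *Kit* was at 11.08 and 10.93 log2 CPM in *Id2+/+* and 10.19 and 10.55 in *Id2*Δ/Δ libraries. Of 10 neutrophil markers, all 10 were listed, with a summed level of 171 to 282 CPM in *Id2+/+* and 142 to 262 CPM in *Id2*Δ/Δ libraries, higher in replicate 1 of each genotype. Sums were 47.8 to 65.1 against 53.2 to 71.9 CPM for 8 of 10 erythroid markers, and 454 to 510 against 513 to 598 CPM for 6 of 7 megakaryocyte markers, without overlap between genotypes. They were 36.8 to 40.8 against 37.7 to 54.0 CPM for 3 of 7 B-cell and 22.7 to 26.2 against 23.5 to 26.1 CPM for 2 of 7 T-cell markers, and 35.4 to 43.3 CPM over the 4 libraries for 5 of 6 macrophage markers. The macrophage marker *Mrc1* was below 1 CPM in each library, and *Cd79a*, *Pax5*, *Cd3e*, *Cd3g* and *Adgre1* were not analysed here. *Flt3* and *Cd48*, absent from the gate as surface proteins, summed to 53.0 and 57.7 CPM in *Id2+/+* and 48.3 and 52.3 CPM in *Id2*Δ/Δ libraries. These sums lay close together, and each gene alone overlapped between genotypes. *Flt3* was at 5.63 and 5.62 log2 CPM in *Id2+/+* and 5.63 and 5.47 in *Id2*Δ/Δ libraries, and *Cd48* at 3.04 and 1.89 against 1.40 and 1.96. In bulk RNA, fewer cells of a type and less RNA per cell cannot be told apart, and the part of these cell types in the results below was not tested.

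Of the 10 genes, 9 had lower mean values in *Id2*Δ/Δ than in *Id2+/+* HSCs and 1, *Men1*, was marginally higher. The median log2 fold change over the 10 genes was -0.19, against 0.01 over all tested genes, of which 48.3% were lower. *Kmt2c* and *Setd2* differed most, by -0.46 and -0.38 on the log2 scale, a difference of -27.1% and -23.1% from the controls. None of the 10 passed the test across all genes (limma, two-sided, Benjamini-Hochberg adjustment), with adjusted p-values of 0.910 to 0.993, and 0% of the 15895 genes passed it, while 742 had an unadjusted p-value under 0.05. At an unadjusted p-value under 0.05, 2 of the 10 were lower and 0 higher, where 2.95% of all tested genes were lower and 1.72% were higher. In 5 of the 10, *Kmt2a*, *Kmt2c*, *Kmt2d*, *Setd2* and *Nsd1*, both *Id2*Δ/Δ values lay below both control values, and in 0 both lay above. Over all tested genes 15.8% lay below and 19% above in this way. With 2 libraries a genotype, the smallest two-sided p of an exact permutation test on a single gene is 0.333. Leaving out *Id2*Δ/Δ replicate 1 moved the median to -0.27, and the median was -0.12 without *Id2+/+* replicate 2.

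**Figure D1:**
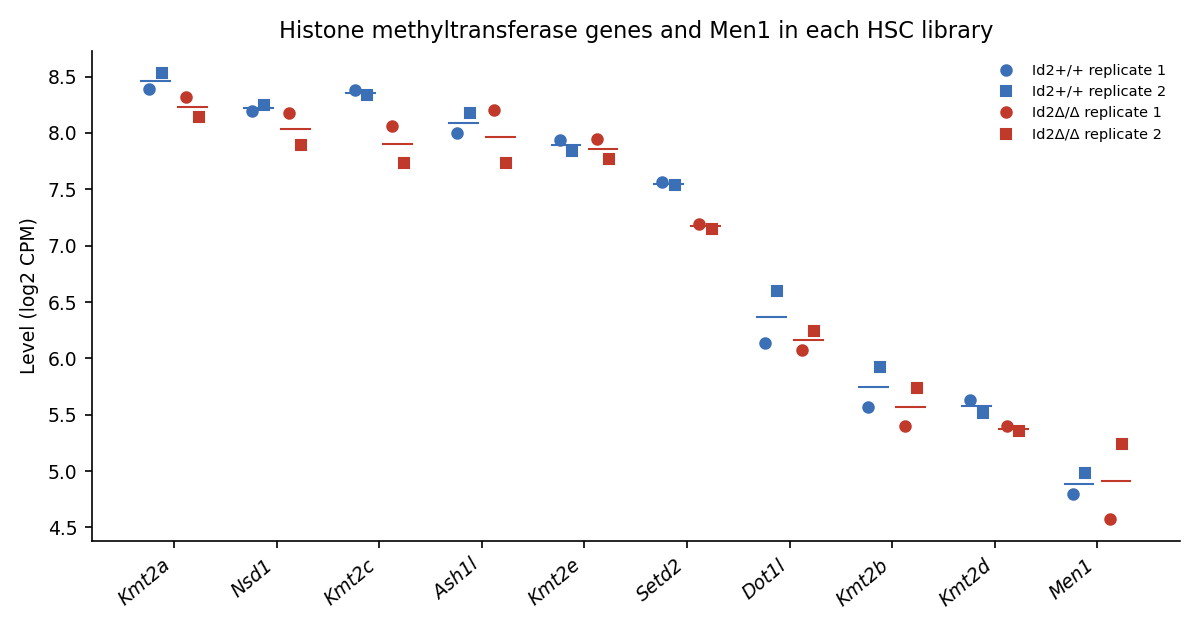
Level in log2 CPM (vertical axis) of each gene in the 4 HSC libraries, with blue for *Id2+/+*, red for *Id2*Δ/Δ, circles for replicate 1, squares for replicate 2 and lines for the mean of each genotype. The red points of *Setd2* (7.20 and 7.15) and *Kmt2c* (8.07 and 7.73) lie well below the blue ones, whereas those of *Men1* and *Ash1l* lie on both sides.

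The 10 genes are long, and length moved with the difference. The longest annotated transcripts of the 10 have a median of 10056 bases, against 2955 bases over all tested genes, and *Men1*, at 3002 bases, is the shortest. Among all tested genes, 677 with a longest transcript of 8000 to 16000 bases had a median log2 fold change of -0.16 and 74.7% were lower in *Id2*Δ/Δ libraries. In 34 genes of 16000 bases or more the median was -0.18, and in 1969 genes under 1000 bases it was 0.13. The long classes were not equally low in both *Id2*Δ/Δ libraries. As deviations from a gene's mean over the 4 libraries, genes of 8000 to 16000 bases had medians of 0.09 in both controls, -0.02 in replicate 1 of *Id2*Δ/Δ and -0.11 in its replicate 2. The 10 genes had medians of 0.06 and 0.16 in *Id2+/+* replicates 1 and 2 and -0.07 and -0.16 in *Id2*Δ/Δ replicates 1 and 2, and *Id2*Δ/Δ replicate 2 was the lowest library for 7 of them. Across the 10 genes, which share their libraries, Spearman's rho between transcript length and log2 fold change was -0.48, and over 15855 tested genes of known length it was -0.21.

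**Figure D2:**
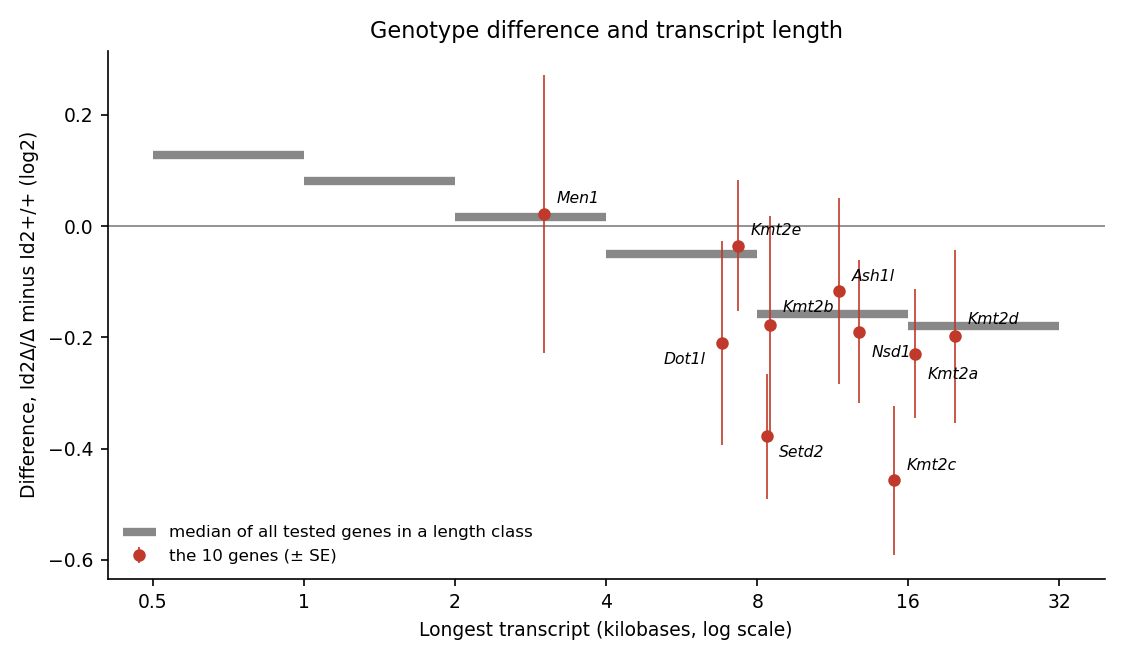
Log2 difference between *Id2*Δ/Δ and *Id2+/+* libraries (vertical axis) against the length of the longest transcript in kilobases (log axis), with red points and bars for the 10 genes ± SE from limma. Grey bars are medians of all tested genes per length class, drawn from 0.5 kilobases for the shortest class and to 32 kilobases for the longest. They step down from 0.13 to -0.18, and *Kmt2c* and *Setd2* lie furthest below them.

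Each library was therefore also corrected for the trend of its values with transcript length over all tested genes. The median of the 10 genes moved from -0.19 to -0.024, and 6 of 10 were lower in *Id2*Δ/Δ libraries. *Kmt2c* and *Setd2* had corrected log2 fold changes of -0.27 each, with standard errors of 0.11 and 0.11 and adjusted p-values of 0.963 and 0.963 (limma). Unadjusted, they were the 2 members with a p-value under 0.05 (limma), 0.0466 for *Kmt2c* and 0.0451 for *Setd2*. They were also the 2 whose *Id2*Δ/Δ values both stayed below both control values. Before the correction, 2.95% of all tested genes were lower at that p-value and 15.8% lay below in this way. The shares of all genes after it were not counted. For *Kmt2a*, *Nsd1* and *Kmt2b* the corrected differences were -0.03, -0.02 and -0.06, and for *Kmt2d*, *Kmt2e* and *Ash1l* the sign turned, to 0.03, 0.06 and 0.04.

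**Figure D3:**
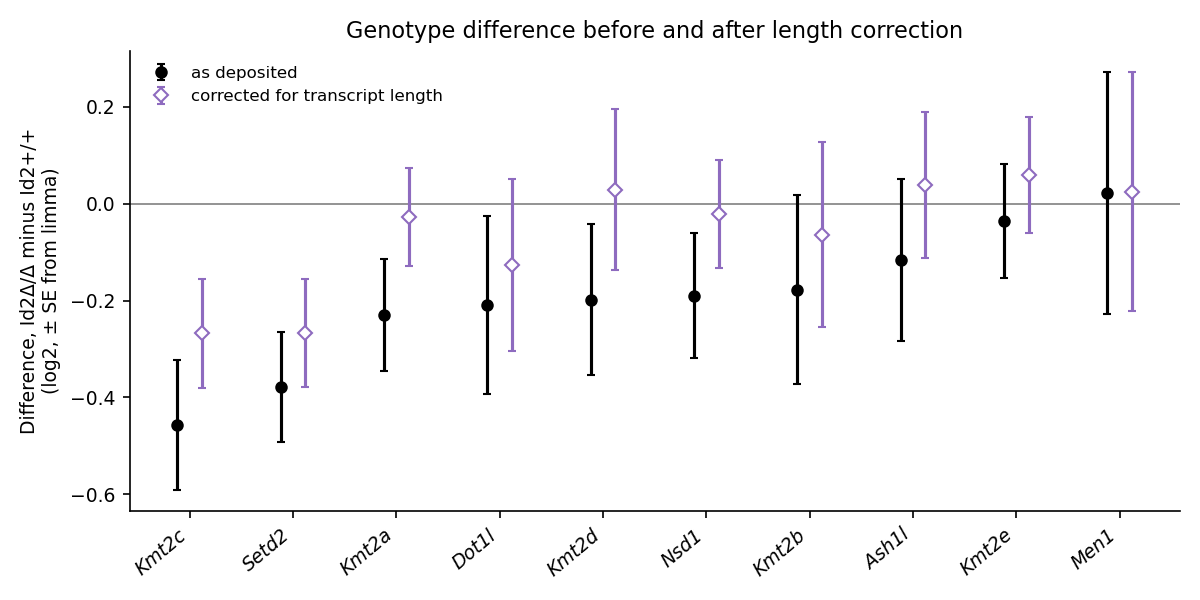
Log2 difference between *Id2*Δ/Δ and *Id2+/+* libraries ± SE from limma (vertical axis) for each gene, from the deposited values (black circles) and after correction for transcript length (open diamonds). *Kmt2c* and *Setd2* keep a corrected difference of -0.27, and the other 8 genes lie between -0.13 and 0.06.

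Promoter windows from RefSeq (GRCm38.p6, 250 bases before to 50 after the start) were matched for 6 of the 10 genes, *Kmt2a*, *Kmt2c*, *Kmt2d*, *Setd2*, *Dot1l* and *Men1*. The 4 windows printed are those of genes whose *Id2*Δ/Δ values both lay below the controls, since ID2 is an inhibitor of E proteins, which bind the E-box. Capitals mark the E-box CANNTG, which reads the same class of site on both strands. The windows lie at chr9:44881240-44881539 on the minus strand for *Kmt2a*, chr5:25498734-25499033 on the minus strand for *Kmt2c*, chr15:98871156-98871455 on the minus strand for *Kmt2d* and chr9:110532347-110532646 on the plus strand for *Setd2*, each written 5′ to 3′ along the gene.
Kmt2a: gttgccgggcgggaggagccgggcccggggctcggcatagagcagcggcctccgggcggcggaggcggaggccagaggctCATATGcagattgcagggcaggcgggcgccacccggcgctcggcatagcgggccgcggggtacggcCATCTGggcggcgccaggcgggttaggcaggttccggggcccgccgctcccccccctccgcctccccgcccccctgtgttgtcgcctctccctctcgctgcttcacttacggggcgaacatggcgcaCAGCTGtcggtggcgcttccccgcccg
Kmt2c: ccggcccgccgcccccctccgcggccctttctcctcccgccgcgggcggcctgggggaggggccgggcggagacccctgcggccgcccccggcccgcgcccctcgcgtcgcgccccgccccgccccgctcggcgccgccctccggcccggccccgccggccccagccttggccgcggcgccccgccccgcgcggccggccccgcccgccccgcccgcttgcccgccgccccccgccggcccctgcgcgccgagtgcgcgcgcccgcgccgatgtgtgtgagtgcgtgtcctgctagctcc
Kmt2d: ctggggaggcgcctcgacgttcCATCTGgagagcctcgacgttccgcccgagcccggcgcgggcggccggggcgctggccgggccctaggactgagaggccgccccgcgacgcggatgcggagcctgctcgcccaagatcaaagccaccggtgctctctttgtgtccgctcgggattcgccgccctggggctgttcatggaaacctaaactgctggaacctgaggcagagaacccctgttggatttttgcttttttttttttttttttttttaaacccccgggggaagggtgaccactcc
Setd2: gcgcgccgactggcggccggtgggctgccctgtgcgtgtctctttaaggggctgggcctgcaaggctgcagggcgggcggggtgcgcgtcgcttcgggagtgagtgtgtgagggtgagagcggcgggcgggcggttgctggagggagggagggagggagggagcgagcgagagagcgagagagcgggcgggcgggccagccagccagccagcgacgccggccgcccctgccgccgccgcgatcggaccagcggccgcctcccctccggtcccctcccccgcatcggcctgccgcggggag

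An E-box match occurred 3 times in the *Kmt2a* window, 1 time in that of *Kmt2d* and 0 times in those of *Kmt2c*, *Setd2*, *Dot1l* and *Men1*, where 72.3% of all 32851 promoter windows of this length hold at least 1. The letters ACGTG or GCGTG, the core of the hypoxia response element, were counted on both strands. They occurred 7 times in the *Dot1l* window, 1 time each in those of *Kmt2c*, *Setd2* and *Men1*, and 0 times in those of *Kmt2a* and *Kmt2d*, and 43.8% of all windows hold at least 1. *Men1* has 3 overlapping windows, all with these counts. CpG dinucleotides, which the CXXC domain of KMT2A and KMT2B binds when unmethylated, numbered 56 in the *Kmt2c* window, 49 in *Dot1l*, 38 in *Setd2*, 36 in *Kmt2a*, 27 in *Kmt2d* and 11 to 16 in *Men1*, against a median of 7 over all windows. These are matches of letters and not shown sites.

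*Kmt2a* (ENSMUSG00000002028.13), the most abundant of the 10 by CPM, spans positions 44803355 to 44881296 of chromosome 9 (GRCm38, minus strand), and its longest transcript has 16470 bases in 36 exons. Its level was 8.39 and 8.53 log2 CPM in *Id2+/+* replicates 1 and 2 and 8.32 and 8.14 in *Id2*Δ/Δ replicates 1 and 2. The genotypes did not overlap, but *Id2*Δ/Δ replicate 1 lay only 0.07 below *Id2+/+* replicate 1. The genotype difference was -0.23 ± 0.12 (SE, adjusted p = 0.910 from limma), and it was -0.07 within replicate 1 and -0.39 within replicate 2. It ranged from -0.32 to -0.14 with each library left out in turn, the smallest without *Id2*Δ/Δ replicate 2, and after length correction the genotypes overlapped.

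*Kmt2b* (ENSMUSG00000006307.16, chromosome 7 from 30568858 to 30588726, minus strand), the closest relative of *Kmt2a*, has a longest transcript of 8469 bases. Its values were 5.57 and 5.93 log2 CPM in *Id2+/+* and 5.40 and 5.74 in *Id2*Δ/Δ libraries. Replicate 2 was above replicate 1 by 0.36 in the controls and by 0.34 in *Id2*Δ/Δ, more than the genotype difference of -0.18 ± 0.20 (SE). Within each replicate number the difference was -0.17 and -0.19. *Kmt2a* exceeded *Kmt2b* by 2.82 and 2.61 on the log2 CPM scale in *Id2+/+* libraries and by 2.92 and 2.40 in *Id2*Δ/Δ libraries, so the balance between both enzymes overlapped between genotypes.

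*Men1* (ENSMUSG00000024947.16, chromosome 19 from 6334979 to 6340891, plus strand), whose product menin tethers KMT2A and KMT2B to chromatin, is not a methyltransferase itself. It was at 4.79 and 4.98 log2 CPM in *Id2+/+* and 4.58 and 5.24 in *Id2*Δ/Δ libraries, which span the controls on both sides. Its *Id2*Δ/Δ libraries spread the most of the 10 genes (mean 4.91, SD 0.47, n = 2). It also had the fewest reads, about 394 to 714 per library. The log2 fold change of 0.02 had a 95% interval of -0.56 to 0.61, which covers counting and replicate error together and leaves room for a sizeable difference in either direction.

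*Kmt2c* (ENSMUSG00000038056.15), with a longest transcript of 14967 bases in 59 exons, lies on chromosome 5 from 25271798 to 25498783 on the minus strand. Its enzyme is a catalytic subunit of the enhancer-associated complexes. The level was 8.38 and 8.33 log2 CPM in *Id2+/+* and 8.07 and 7.73 in *Id2*Δ/Δ libraries. The control libraries differed by 0.05 and the *Id2*Δ/Δ libraries by 0.33, with both of the latter below both controls. The log2 fold change was -0.46 ± 0.13 (SE, 95% interval -0.77 to -0.14, unadjusted p = 0.0105, adjusted p = 0.910, limma). It was -0.32 within replicate 1 and -0.60 within replicate 2, and ranged from -0.62 to -0.29 with each library left out in turn, the smallest without *Id2*Δ/Δ replicate 2.

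*Kmt2d* (ENSMUSG00000048154.16, chromosome 15 from 98831669 to 98871204, minus strand), the paralog of *Kmt2c*, has the longest transcript of the 10, with 19823 bases. Its values were 5.63 and 5.52 log2 CPM in *Id2+/+* and 5.40 and 5.35 in *Id2*Δ/Δ libraries, low and close together in both genotypes. The genotypes did not overlap and differed by -0.20 ± 0.16 (SE). *Kmt2c* exceeded *Kmt2d* by 2.75 and 2.82 on the log2 CPM scale in *Id2+/+* libraries and by 2.67 and 2.38 in *Id2*Δ/Δ libraries. The balance between these paralogs was thus lower in both *Id2*Δ/Δ libraries than in either control, by 0.26 on average. The nearest values of the genotypes were 2.67 and 2.75, and whether the paralogs changed unequally was not tested.

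*Kmt2e* (ENSMUSG00000029004.15, chromosome 5 from 23434441 to 23504235, plus strand), which is known for a role in HSC function without methylating histones in the way its relatives do, was nearly level. It had 7.94 and 7.84 log2 CPM in *Id2+/+* and 7.94 and 7.77 in *Id2*Δ/Δ libraries, and *Id2*Δ/Δ replicate 1 equaled *Id2+/+* replicate 1. The log2 fold change of -0.03 had a 95% interval of -0.31 to 0.24. Of its annotated exon bases, 972 (9.31%) are shared with *Srpk2* on the opposite strand, and strand use in counting is not given in the sources used here, so its reads cannot be separated from those of *Srpk2* there.

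*Setd2* (ENSMUSG00000044791.16), which trimethylates lysine 36 of H3 along transcribed genes, lies on chromosome 9 from 110532597 to 110618633 on the plus strand, with a longest transcript of 8350 bases. The values were 7.56 and 7.54 log2 CPM in *Id2+/+* and 7.20 and 7.15 in *Id2*Δ/Δ libraries. Replicates differed by 0.02 in the controls and 0.05 in *Id2*Δ/Δ HSCs, the tightest pairs among the 10 genes when both genotypes are considered, and the genotypes were well apart. The log2 fold change was -0.38 ± 0.11 (SE, 95% interval -0.64 to -0.11, unadjusted p = 0.0112, adjusted p = 0.910, limma). It was -0.37 within replicate 1 and -0.39 within replicate 2, and lay between -0.40 and -0.35 whichever library was left out. With about 2604 to 2912 reads per library, counting error alone gives an SD of 0.03 on the log2 scale.

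*Nsd1* (ENSMUSG00000021488.7, chromosome 13 from 55209782 to 55318325, plus strand) places mono- and dimethyl marks on lysine 36. It had 8.20 and 8.25 log2 CPM in *Id2+/+* and 8.18 and 7.89 in *Id2*Δ/Δ libraries. *Id2*Δ/Δ replicate 1 was just below the controls and replicate 2 clearly so, and the difference of -0.19 ± 0.13 (SE) was -0.02 within replicate 1 and -0.36 within replicate 2. It was -0.04 without *Id2*Δ/Δ replicate 2.

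*Ash1l* (ENSMUSG00000028053.13, chromosome 3 from 88950622 to 89079375, plus strand), also an H3 lysine 36 enzyme, had 8.00 and 8.17 log2 CPM in *Id2+/+* and 8.20 and 7.73 in *Id2*Δ/Δ libraries. The *Id2*Δ/Δ libraries were the highest and the lowest of the 4. The difference was 0.21 within replicate 1 and -0.44 within replicate 2, so no direction can be given. *Ash1l* shares 352 annotated exon bases with *Dap3* on the opposite strand, and *Kmt2a* shares 378 with the antisense gene AC061963.1 and *Kmt2c* shares 274 with *Gm42585*, an entry of type TEC on the opposite strand.

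*Dot1l* (ENSMUSG00000061589.14, chromosome 10 from 80755206 to 80795461, plus strand), the H3K79 enzyme, had 6.14 and 6.60 log2 CPM in *Id2+/+* and 6.08 and 6.24 in *Id2*Δ/Δ libraries. *Id2+/+* replicate 2 stood above the other 3 libraries, which lay within 0.17 of each other. The log2 fold change of -0.21 ± 0.18 (SE) became 0.02 without *Id2+/+* replicate 2.

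Levels of different genes were compared per length, as log2 CPM per kilobase of the longest transcript, and the order depended on that choice of length. By the longest transcript, *Kmt2e* was highest, at a mean of 5.002 over the 4 libraries (32.04 CPM per kilobase), and all of its values lay above those of the other genes. *Ash1l*, *Nsd1*, *Kmt2a*, *Setd2* and *Kmt2c* followed, at 4.49, 4.45, 4.31, 4.30 and 4.22, and the ranges of neighbors among these 5 overlapped. Compared within each library, however, *Nsd1* was above *Kmt2a* in all 4. *Dot1l* (3.50) and *Men1* (3.31) overlapped with each other, and the lowest values of *Kmt2c* just reached the highest of *Dot1l*. *Kmt2b* (2.58) and *Kmt2d* (1.17) were lowest and stood apart from their neighbors in every library. With the median length of a gene's transcripts instead, *Nsd1* was highest (7.93) and apart from *Kmt2e* (7.08), which overlapped with *Setd2* (6.998). *Kmt2b* (6.003) and *Kmt2d* (5.63) then ranked 5 and 7 of 10, and *Dot1l* (4.77) and *Men1* (3.54) were lowest. The median is set by short annotated transcripts in *Nsd1* (1149 bases, longest 12784), *Kmt2b* (788, longest 8469) and *Kmt2d* (899, longest 19823). Dividing by it raises their levels per length. By CPM, *Kmt2a* exceeded 97.6% of all tested genes, and per length of the longest transcript 71.2%. *Kmt2d* exceeded 62.5% by CPM and 21.5% per length. By the longest transcript, the GC-rich gene of each paralog pair had the lower level, with *Kmt2b* at 59.1% and *Kmt2d* at 58.4% GC against 50.6% in *Kmt2a* and 47.6% in *Kmt2c*.

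**Figure D4:**
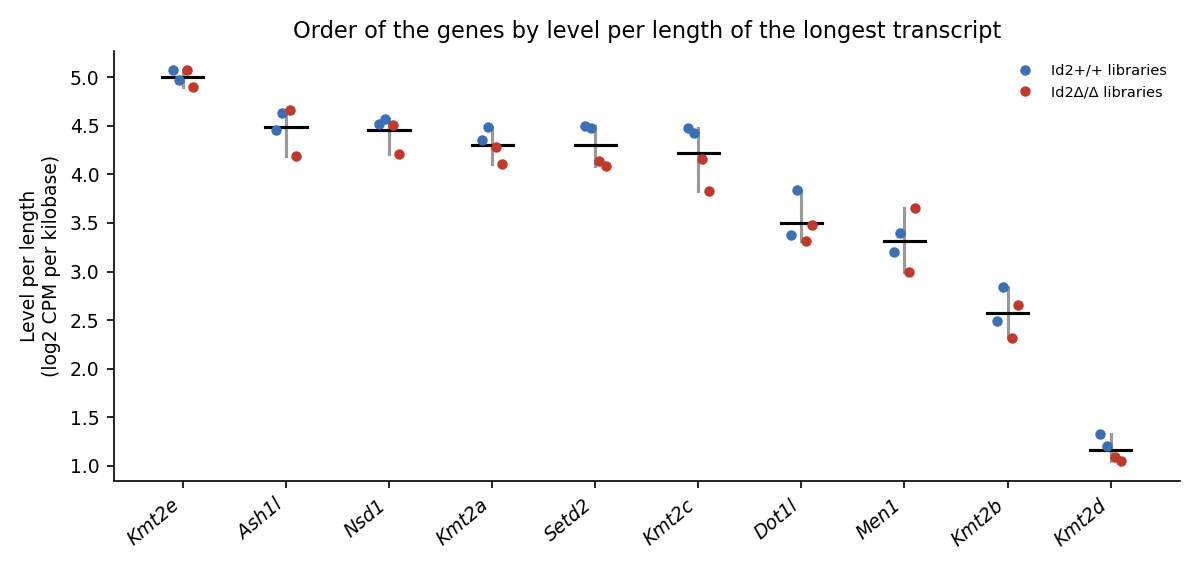
Level per length in log2 CPM per kilobase of the longest transcript (vertical axis), with blue points for *Id2+/+* libraries, red for *Id2*Δ/Δ libraries, black bars for the mean and grey lines for the range over 4 libraries. *Kmt2e* stands at the top (5.002), 5 genes share the range around 4.22 to 4.49, and *Kmt2d* is lowest (1.17), whereas by median transcript length *Nsd1* is highest and *Men1* lowest.

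Among the 10 genes, GC content went in part with the difference between replicates, more so in *Id2*Δ/Δ than in control libraries. *Kmt2b*, *Dot1l* and *Men1*, at 57.0% to 59.1% GC, were higher in replicate 2 than in replicate 1 in both genotypes, by 0.19 to 0.46 in the controls and 0.17 to 0.67 in *Id2*Δ/Δ libraries. The GC-rich *Kmt2d* was not, with -0.12 and -0.04. Of the 6 other genes, at 44.3% to 50.6% GC, all 6 were lower in replicate 2 of *Id2*Δ/Δ, by -0.05 to -0.47, and 3 of 6 were lower in replicate 2 of the controls. Over the 10 genes, Spearman's rho between GC content and the difference of replicate 2 from replicate 1 was 0.33 in *Id2+/+* libraries. It was 0.65 in *Id2*Δ/Δ libraries, as a description, and was not computed over all tested genes.

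The core of the KMT2 complexes that methylate lysine 4 is made of WDR5, RBBP5, ASH2L and DPY30. Its genes have a median longest transcript of 3138 bases. All 4 had higher means in *Id2*Δ/Δ libraries, with a median log2 fold change of 0.18. *Dpy30* had 5.72 and 5.73 log2 CPM in *Id2+/+* and 5.94 and 5.93 in *Id2*Δ/Δ libraries, a difference of 0.21 ± 0.14 (SE). For *Dpy30*, *Rbbp5* (0.19) and *Ash2l* (0.16) the *Id2*Δ/Δ values were each higher than either control, and for *Wdr5* (0.07) they overlapped. Over all tested genes 19% lay above in this way. After length correction the median of the 4 was 0.14, with *Dpy30* at 0.11, *Rbbp5* at 0.19, *Ash2l* at 0.17 and *Wdr5* at 0.07. None had an adjusted p-value under 0.05, and 0 of 4 had an unadjusted one under 0.05.

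Among 14 listed partners of the KMT2 and SET1 complexes, 7 were lower and 7 higher, with a median of -0.03. *Ogt*, which encodes the O-GlcNAc transferase and was the most abundant of them, differed by -0.19 ± 0.11 (SE). Of 11 DOT1L and elongation partners, 7 were lower with a median of -0.06, and the most abundant, *Mllt3*, was at -0.06 ± 0.15 (SE). Of 9 readers and partners of the lysine 36 mark, 4 were lower. *Supt6*, a histone chaperone that travels with RNA polymerase II, was at 6.52 and 6.77 log2 CPM in *Id2+/+* and 6.27 and 6.21 in *Id2*Δ/Δ libraries, a difference of -0.40 ± 0.14 (SE, unadjusted p = 0.0251, adjusted p = 0.910, limma). *Morf4l1*, which binds methylated lysine 36 and was the most abundant of this list, was at 0.01 ± 0.13 (SE).

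Other enzymes listed for the same marks were split in direction. Of 12 genes listed as other lysine 4 and lysine 36 methyltransferases, not all established as such, 6 were lower and 6 higher. Their median was -0.02, and *Nsd2* (listed as *Whsc1*), the most abundant, was at -0.13 ± 0.15 (SE). *Smyd5* was at 5.67 and 5.80 log2 CPM in *Id2+/+* and 6.04 and 6.31 in *Id2*Δ/Δ libraries, a difference of 0.44 ± 0.16 (SE, unadjusted p = 0.0264, adjusted p = 0.910, limma). Of 13 further lysine methyltransferases, 7 were higher, with a median of 0.04. Among them *Setdb2*, an H3 lysine 9 enzyme, was at 0.56 ± 0.22 (SE, unadjusted p = 0.0408, limma) and *Ehmt1*, the most abundant, at -0.14 ± 0.12 (SE).

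The genes listed as demethylases of lysine 4 and lysine 36, not all of them established on these marks, were mostly lower by their means. Of 15 tested, 13 were lower, with a median of -0.25, and 7 had both *Id2*Δ/Δ values below both controls, against the 15.8% of all tested genes given above. Their median longest transcript was 4663 bases, and the length correction left a median of -0.21. *Kdm5a*, the most abundant, was at 7.89 and 7.94 log2 CPM in *Id2+/+* and 7.82 and 7.52 in *Id2*Δ/Δ libraries, a difference of -0.25 ± 0.13 (SE). The Y-linked *Kdm5d* was at -0.94 ± 0.30 (SE, unadjusted p = 0.0159, adjusted p = 0.910, limma).

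Of 14 known targets of KMT2A in blood cells, 9 were lower and 5 higher, with a median of -0.06. *Meis1*, the homeobox gene most tied to KMT2A in HSCs, was the most abundant, at 9.99 and 9.96 log2 CPM in *Id2+/+* and 9.73 and 9.82 in *Id2*Δ/Δ libraries. Its difference was -0.20 ± 0.09 (SE), without overlap, and -0.10 after length correction. *Mef2c*, which encodes a transcription factor of lymphoid and myeloid progenitors, was at -0.29 ± 0.11 (SE, unadjusted p = 0.0348, adjusted p = 0.910, limma). Of the 5 *Hox* genes in the list, *Hoxa5*, *Hoxa7*, *Hoxa9* and *Hoxa10* were at 0.02, -0.07, -0.05 and -0.10, each smaller than its standard error. *Hoxb4* was at 2.84 and 2.47 log2 CPM in *Id2+/+* and 3.39 and 3.18 in *Id2*Δ/Δ libraries, a difference of 0.63 ± 0.31 (SE, unadjusted p = 0.0780, adjusted p = 0.910, limma), without overlap.

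**Figure D5:**
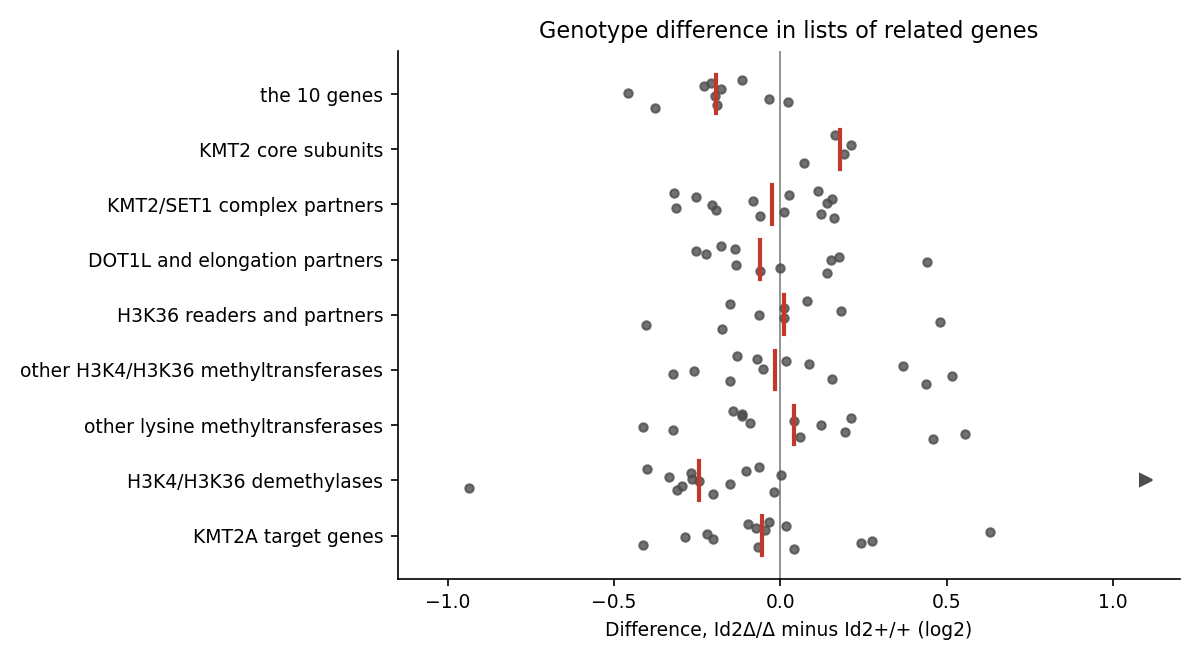
Log2 difference between *Id2*Δ/Δ and *Id2+/+* libraries (horizontal axis) for the tested genes of each list, 1 point a gene, with the median as a red line and an arrowhead for 1 gene beyond the axis. The 10 genes (median -0.19) and the demethylases (-0.25) lie mostly left of 0, the 4 KMT2 core subunits (0.18) lie right of it, and the other lists straddle it.

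Among 7368 other genes averaging 32 CPM or more, the pattern over the 4 libraries closest to the median of the 10 genes was that of *Wdr26*, *Ppfia1*, *Mtfr1*, *Ebi3* and *Atg16l2*. Their root mean square differences from it were 0.015 to 0.019 on the log2 scale, and their longest transcripts have 1154 to 7068 bases. With 4 libraries, such a likeness is a description of these values only.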

How the data were processed

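RNA was extracted from pooled sorted HSCs, and 4 libraries were deposited, 2 per genotype. The submitters' processing notes name CASAVA 1.8.4, Trimmomatic 0.30, TopHat2 2.0.8, RSEM and STAR and the builds mm9 and NCBIM37, without roles. The authors deposited normalized values whose unit, log2 CPM after quantile normalization, was read from the values themselves. After sorting, 88.4% of ranks differed by under 0.1 between libraries, so differences of scale between libraries are no longer visible. Depth was read from the ranks of distinct values with log2 CPM of 1 to 5, and read numbers of single genes are that depth times CPM. Such counting errors cover reads only. Strand use and the sharing of reads between near-identical genes are not given in the sources used here.

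Log2 values were tested without a pseudocount with limma 3.58.1 in R 4.3.3 (moderated test with a mean-variance trend, a model holding genotype alone, genes averaging 1 CPM or more, two-sided, Benjamini-Hochberg adjustment over all tested genes, threshold 0.05). The code was tested on simulated data. Length and GC content are those of the longest transcript in GENCODE M21 (GRCm38), matched by Ensembl identifier for 99.7% of tested genes, and the correction subtracts a natural spline with 5 degrees of freedom from each library. Coordinates are GENCODE's, since the deposited rows carry none. Some marker genes are not reported here. Alternatives changed the pseudocount, scaling, filter, trend, replicate block, length and GC correction, the transcript length used for levels, and libraries. The members, lists and tests were chosen with earlier results of these data known. Besides the 10 genes and the 4 core subunits, genes were named if they had the highest mean of a list, an unadjusted p-value under 0.05 (at most 4 a list) or the closest pattern; the *Hox* genes, *Gm48314* and the sex-chromosome genes were added after their values were seen. The labels name 2 experiments but not which library came from which, so p-values measure the spread between these libraries, which may be technical.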

Additional observations from a re-analysis of the deposited data

How the results depend on the processing

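None of the 10 genes had an adjusted p-value under 0.05 under any alternative, the smallest being 0.273. Across all genes 742 passed at an unadjusted p-value under 0.05 (2 of the 10). The labels do not say that replicate numbers mark an experiment, and same-numbered libraries deviated together with a correlation of only 0.0592, or 0.144 above 32 CPM. The replicate block called 1 gene over all, also 1 with length correction and 3 with length and GC correction, a setting chosen after seeing the data. Of the 10 genes, 0 had an unadjusted p-value under 0.05 without the intensity trend, and 1 did with the block and either correction. Leaving out each library in turn gave 0 to 5. The median of the 10 was -0.024 with length correction and -0.047 with length and GC correction, in each case with or without the block. It was -0.12 from replicates 1 alone, -0.36 from replicates 2 alone, and -0.27 to -0.12 with a library left out. Genes without overlap numbered 2 under the length correction and under the length and GC correction, where the share of all tested genes was not counted. Of 160 values for single genes, 138 kept their direction. The filters, the intensity trend and the replicate block leave a fold change as it is, so those values could not turn. With the block, each correction only repeats its own value. The share kept is therefore no measure of robustness. *Kmt2d* turned to 0.029 with length correction. *Kmt2e* turned to 0.059 and 0.057 with length and with length and GC correction, and *Ash1l* to 0.039 and 0.036. *Men1* turned to -0.011 with length and GC correction. With replicates 1 alone *Kmt2e*, *Ash1l* and *Men1* were at 0.00032, 0.21 and -0.21. With a library left out *Kmt2b* ranged from -0.36 to 0.0015, *Kmt2e* from -0.12 to 0.052, *Ash1l* from -0.35 to 0.12, *Men1* from -0.31 to 0.36 and *Dot1l* from -0.44 to 0.021. *Kmt2c*, *Setd2*, *Kmt2a* and *Nsd1* kept their direction in every alternative. The order of levels per length changed with median in place of longest transcript length, with *Nsd1* in place of *Kmt2e* at the top. The cause of these changes was not tested.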

Other observations

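Genes of the sex chromosomes were chosen after their values were seen, because the Y-linked *Kdm5d* had the smallest p-value among the demethylases. *Ddx3y*, also Y-linked and encoding an RNA helicase, was at 6.32 and 6.32 log2 CPM in *Id2+/+* and 5.97 and 5.75 in *Id2*Δ/Δ libraries, a difference of -0.46 (standard error 0.15, adjusted p = 0.910, limma). *Uty* differed by -0.36 ± 0.20 (SE) and *Eif2s3y* by -0.30 ± 0.23 (SE). *Xist*, the RNA of the inactive X chromosome in female cells, was at 8.51 and 8.81 in *Id2+/+* and 9.04 and 8.93 in *Id2*Δ/Δ libraries, a difference of 0.32 (standard error 0.13). The X-linked demethylase genes *Kdm5c* and *Kdm6a* were at -0.29 and -0.21. The labels do not give the sex of the pooled mice, and its part in the results was not tested; each of the 10 genes lies on an autosome.

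*Gm48314*, an entry annotated inside *Kmt2a* on the same strand without shared exon bases, was at 2.72 and 2.24 log2 CPM in *Id2+/+* and 1.22 and 1.26 in *Id2*Δ/Δ libraries. It too was picked out after its values were seen.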
